A study of Mus musculus with 8 samples.

Results

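A CpG dyad is the pair of cytosines that face each other on the 2 strands of one CpG, and the dyads described here are those where both cytosines were read at the same time point. A read with at least 2 CpG calls was placed on the top strand where its positions fell through the read and on the bottom strand where they rose. A dyad was kept if at least 1 top call at a position and 1 bottom call at the next base came from libraries of the same time, on chromosomes 1 to 19, at positions with at most 10 calls in any library. There were 17452 such dyads among the 1314840 CpGs with a call of known strand. At 0 h 1814 dyads were kept of 259452 CpGs, at 6 h 2113 of 280626 and at 12 h 14447 of 825884. The strand rule was set against promoter sequences of the mouse, where 22284 of 22284 top calls lay at a C and 23184 of 23184 bottom calls at a G.

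The cells were mouse embryonic stem cells whose TET1, TET2 and TET3 genes are inactivated, and all groups shared this triple knock-out and a PiggyBac vector from which doxycycline induces the catalytic domain of mouse TET3, linked to mCherry. There were 3 libraries of cells without doxycycline (Ctr 0h, A to C), 2 libraries after 6 h of 1 µM doxycycline (Dox 6h, A and B) and 3 after 12 h (Dox 12h, A to C), all in medium with 50 µg/ml ascorbate. The catalytic domain alone was expressed, from a transposon in a stable line, and the labels do not say whether the line is a clone. Separate cultures are not stated for the libraries either, so the p-values capture only how far these 8 libraries vary, a variation that may be technical. CpG calls cannot check the cell type or the knock-out.

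CpG methylation is symmetric: after replication the new strand is unmethylated, UHRF1 binds such hemimethylated CpGs and DNMT1 methylates the new strand. TET enzymes oxidise 5-methylcytosine to 5-hydroxymethylcytosine (5hmC) one cytosine at a time, so a dyad can carry 5hmC on one strand, on both or on neither. In APOBEC-coupled epigenetic sequencing (ACE-seq) 5hmC is protected by a glucose, and cytosines and 5-methylcytosines are deaminated. The further oxidised cytosines that TET enzymes make from 5hmC are poor substrates of the deaminase. An undeaminated call therefore stands for 5hmC, for such a cytosine or for assay background, and the level is the percentage of calls that are undeaminated. The DNA was denatured before deamination, so the calls of the 2 strands of a dyad are always on separate reads.

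A few dyads upstream of gene starts show what the states look like in sequence. They were chosen after their calls were seen, from the 12 h dyads with 1 call on each strand in the RefSeq promoter windows of GRCm38.p6. The plus strand is printed from 5′ to 3′, with the called CpG in capitals.
Krt9, both strands undeaminated, chr11:100193403-100193432: ccttggtgactgccCGtcagcagcccagcc
Krt9, bottom strand only, chr11:100193385-100193414: agccccaggctctgCGtcccttggtgactg
Olfr283, both strands undeaminated, chr15:98379291-98379320: cttcttgggagcacCGgctactcttcggag
Gda, top strand only, chr19:21472837-21472866: tatactcctaggacCGttcatcccctcaac
Ccdc175, top strand only, chr12:72185184-72185213: tacagactgctttcCGaaatcacaaggacg
Acot12, bottom strand only, chr13:91741295-91741324: tggagctagggcagCGctcctgttctgctc
Ncbp1, bottom strand only, chr4:46138454-46138483: ccggcgcgcgcgtgCGcagagagtccctga
Ormdl1 and Pms1, neither strand, chr1:53297033-53297062: ggaagtgggattggCGcggctggcagccaa

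The pair upstream of Krt9, a keratin of palm and sole skin, came from the same 2 reads of the 12 h library B, each with 2 CpGs. The top read was undeaminated at one CpG and deaminated at the other, 154 bases before the gene start, while the bottom read was undeaminated at both. At Olfr283, an olfactory receptor gene, the top call came from library C and the bottom call from library B. Gda encodes guanine deaminase and Acot12 an acyl-CoA thioesterase, and their reads held 2 or 3 CpGs. Upstream of Ncbp1, which encodes a subunit of the nuclear cap-binding complex, the top read carried 18 CpGs and the bottom read 13. In this pair of reads 5 dyads were undeaminated on the bottom strand and deaminated on the top, so 5 undeaminated calls rest on 1 read. The window between Ormdl1 and the mismatch repair gene Pms1 had reads with 9 and 14 CpGs. Of the 252 such dyads with 14 bases of upstream sequence on either side, 2 were undeaminated on both strands, 12 on the top strand only, 10 on the bottom strand only and 228 on neither. The median number of CpGs on the read with fewer CpGs was 3.5 for the dyads undeaminated on both strands, 2.5 for the top-only dyads and 10 both for the bottom-only dyads and for those undeaminated on neither strand. These medians count dyads and not reads, and 5 of the 10 bottom-only dyads are those of the 1 Ncbp1 pair of reads.

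The first question is how far the level at the dyads rose, and on which strand. In the Dox 12h libraries A, B and C the dyad level was 19.4%, 20.0% and 24.6%, against 1.95%, 1.23% and 0.965% in the Ctr 0h libraries A, B and C. In the Dox 6h libraries A and B it was 3.95% and 4.27%. The 3 groups did not overlap, and library C was the highest at 12 h. A library held 1189 to 15463 dyad calls out of 75023 to 485941 CpG calls in all, and the widest 95% Wilson interval of a 12 h library, that of C, ran from 23.5 to 25.8%. Intervals cover counting error only, since reads without molecular identifiers are not independent molecules.

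The mean was 21.3% ± 2.88 (SD, n = 3) at 12 h and 1.38% ± 0.511 (SD, n = 3) at 0 h, a difference of 20.0 percentage points. The two-sided exact permutation p was 0.1, as low as a design of 3 against 3 can go. The 6 h mean of 4.11% ± 0.226 (SD, n = 2) lay 2.73 points above the 0 h mean and 17.2 points below the 12 h mean. Outside high-copy windows, which are the 18 windows of 10 kb with 200 or more calls, the 6 h mean was 6.70% ± 1.27 (SD, n = 2), against 0.951% ± 0.133 (SD, n = 3) at 0 h, a difference of 5.75 points. It was 5.53 points over dyads with exactly 1 call on each strand and 5.22 points with at most 2 calls per library at a position. Over all dyads, exact permutation tests of the 6 h libraries against either other time gave p = 0.2, the smallest value for 2 libraries against 3. After Benjamini-Hochberg adjustment over the 8 tests reported here these and every other p came to 0.267 or 0.625, so no comparison passed 0.05.

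Top and bottom strands carried similar levels. At 12 h the top strand had 18.9%, 20.6% and 25.0% in libraries A, B and C, and the bottom strand 19.8%, 19.4% and 24.3%. At 6 h the top strand had 3.48% and 4.92% in libraries A and B, and the bottom strand 4.32% and 3.67%. The top level exceeded the bottom level in 3 of the 5 Dox libraries, by 0.295 points on average over the 5, and the exact sign-flip permutation test gave p = 0.5625. The difference ran from -0.837 to 1.13 points at 12 h, and its mean over the Dox libraries was -0.441 points without the 12 h library B. In Ctr 0h library A the top strand had 0.839% (8 of 953 calls) and the bottom strand 2.77% (36 of 1301), whereas in B and C the top strand was the higher one, at 1.89% and 1.60% against 0.486% and 0.269%. Of the 44 undeaminated dyad calls of that library 11 lay outside high-copy windows.

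**Figure D1:**
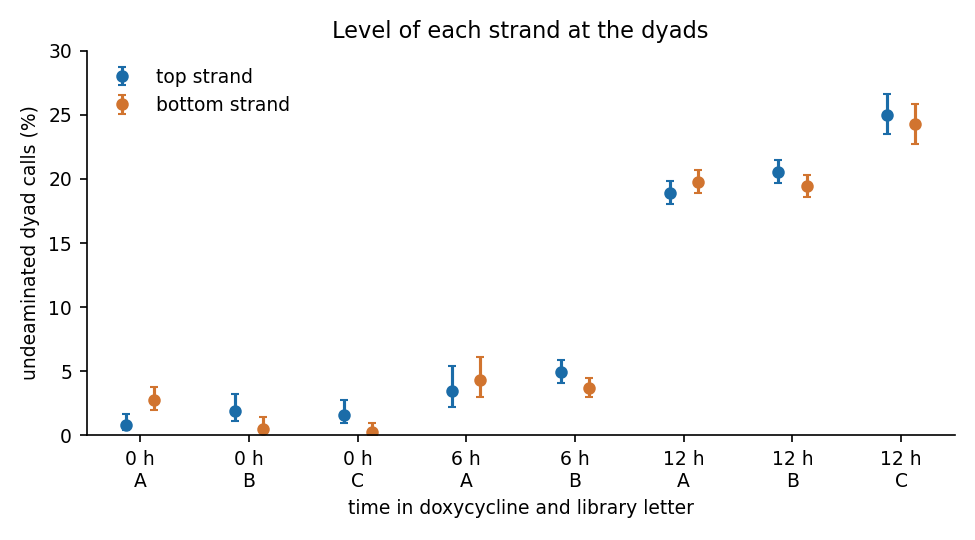
Percentage of dyad calls that were undeaminated on the top strand (blue) and the bottom strand (orange) in each library, by hours in doxycycline, with 95% Wilson intervals. The 12 h points lie between 18.9% and 25.0% on both strands, and all 0 h points lie below 3%.

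Over all calls, the level of the dyads was lower than that of other CpGs. This held against the remaining calls of known strand in 5 of 5 Dox libraries, at 19.4% against 22.2%, 20.0% against 23.3% and 24.6% against 26.5% in the 12 h libraries A, B and C, and at 3.95% against 6.61% and 4.27% against 6.31% in the 6 h libraries A and B. The mean difference over the 5 was -2.54 points (exact sign-flip permutation p = 0.0625, the smallest that 5 pairs allow). High-copy windows held 19.3 to 22.8% of the dyad calls of a 12 h library and 43.2 to 59.0% of those of a 6 h library. Outside these windows the difference was -0.161 ± 0.514 points (SD, n = 3) at 12 h and 0.230 ± 1.06 points (SD, n = 2) at 6 h, with dyads lower in 3 of the 5 libraries. Within classes of CpGs per read it was -0.220 ± 0.468 points at 12 h and -0.832 ± 0.226 at 6 h.

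The limit of 10 calls left out a few dyads. The 36 dyads of 12 h whose busiest library held 9 or 10 calls had a mean level of 18.9%, the 11 dyads just outside, with 11 or 12 calls, 23.5%, and the 54 dyads with 13 or more calls 29.5%. At 6 h these levels were 4.62%, 1.56% and 6.21%, over 30, 8 and 51 dyads.

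The central question is whether a dyad that was undeaminated on one strand was also undeaminated on the other. With each dyad weighted equally, 22.8% of top and 22.5% of bottom calls were undeaminated at 12 h. Both strands were undeaminated in 6.47% of dyads, where the product of the strand levels is 5.13%, a ratio of 1.26. One strand only was undeaminated in 32.4% and neither in 61.2%. The phi coefficient, which is 0 when the strands are unrelated and 1 when they always match, was 0.0767 at 12 h. At 6 h the strand levels were 5.25% and 5.08%. Both strands were undeaminated in 0.528% of dyads where the product is 0.267%, a ratio of 1.98, and phi was 0.0533. These values are descriptions over dyads, which share libraries and reads, and carry no p. With 1 dyad kept per pair of reads phi was 0.0387 at 12 h and 0.0547 at 6 h.

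Dyads with exactly 1 call on each strand give whole counts. At 12 h there were 12885 of them, of which 873 were undeaminated on both strands (6.78%, Wilson interval 6.35 to 7.22%), where the strand levels multiply to 705. A further 2159 were undeaminated on the top strand only, 2123 on the bottom strand only and 7730 on neither. At 6 h 10 of 1614 were undeaminated on both strands (0.620%, 0.337 to 1.14%), where the strand levels multiply to 5.46, with 89 on the top only, 79 on the bottom only and 1436 on neither. At 0 h 0 of 1369 were undeaminated on both strands, where the strand levels multiply to 0.0789, and 21 on one strand. The 0 allows a share of up to 0.219% and, with so low a product, does not bear on agreement. Among dyads with any undeaminated call, those undeaminated on both strands made up 16.9% at 12 h (873 of 5155, interval 15.9 to 17.98%) and 5.62% at 6 h (10 of 178, 3.08 to 10.0%).

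The level of one strand was higher where the other strand was undeaminated. At 12 h bottom cytosines opposite an undeaminated top call were undeaminated in 28.8% (873 of 3032, Wilson interval 27.2 to 30.4%), and those opposite a deaminated top call in 21.5% (2123 of 9853, 20.7 to 22.4%). Read the other way, the top level was 29.1% opposite an undeaminated and 21.8% opposite a deaminated bottom call. At 6 h the bottom level was 10.1% (10 of 99, 5.58 to 17.6%) and 5.21% (79 of 1515, 4.20 to 6.45%). The 12 h intervals do not overlap and the 6 h intervals do. They count dyads on the same pair of reads as independent, so they are too narrow to serve as a test of the difference. Most undeaminated calls at 12 h were thus paired with a deaminated call of a separate read on the other strand. Outside high-copy windows 9279 of the 14943 pairs of opposite calls came from different libraries, and so from different molecules. The states of a dyad therefore mostly combine molecules, and cannot show 5hmC on only 1 strand of one molecule.

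**Figure D2:**
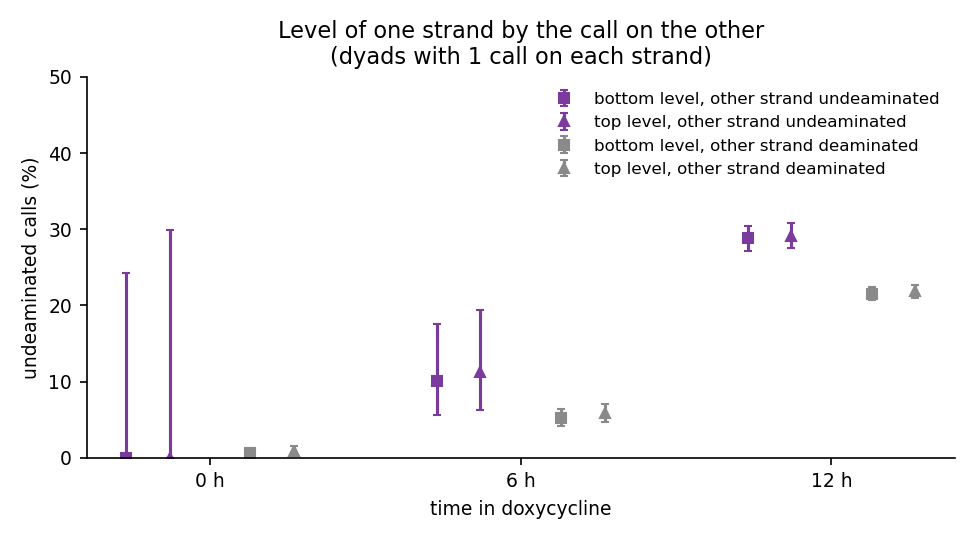
Percentage of undeaminated calls on one strand, split by whether the call on the other strand was undeaminated (purple) or deaminated (grey), for dyads with 1 call on each strand at 0, 6 and 12 h, with 95% Wilson intervals. Squares are bottom calls and triangles top calls. At 12 h the purple points lie at 28.8% and 29.1% and the grey points at 21.5% and 21.8%.

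The excess at 12 h was not confined to a few chromosomes, but its size varied. Over the 19 chromosomes at 12 h the share of dyads undeaminated on both strands had a median of 6.66% and ran from 3.88% on chromosome 17, which also had the lowest level (15.4%), to 10.1% on chromosome 8. It was above the product of the strand levels on 18 of the 19 chromosomes, and phi ran from -0.0413 on chromosome 16 to 0.143 on chromosome 8. Outside high-copy windows, which held 766 of the 12 h dyads and 528 of the 6 h dyads, phi was 0.0722 at 12 h and 0.0586 at 6 h.

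Single libraries showed how variable the agreement is. Counting only dyads with both reads in the same library, phi was 0.0550, 0.101 and 0.0501 in the 12 h libraries A, B and C, over 2956, 3196 and 469 dyads. In the 6 h libraries it was -0.0381 in A over 153 dyads, with 0 dyads undeaminated on both strands, which allows a share of up to 1.96%, and 0.0495 in B over 1578 dyads. The mean was 0.0687 ± 0.0280 (SD, n = 3) at 12 h and 0.00570 ± 0.0620 (SD, n = 2) at 6 h, and the exact permutation test gave p = 0.2, the smallest possible. The difference of 0.0630 shrank to 0.0191 without the 6 h library A. With the log2 odds ratio in place of phi it was reversed, at -0.501. The times differ in level, so a difference in phi does not by itself show a difference in agreement.

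Agreement was also measured between libraries, whose reads come from different molecules. Within a library phi was lower than between that library and the others of its time in 4 of the 5 Dox libraries, with a mean difference of -0.0368 (exact sign-flip permutation p = 0.125). Between libraries phi was 0.0867, 0.0817 and 0.0951 at 12 h for A, B and C, and 0.0689 at 6 h, where the single pair of libraries gives both values the same number. Of the pairs of opposite calls outside high-copy windows, 5664 came from the same library at 12 h, where the libraries' shares of calls would give 5590, a ratio of 1.01. At 6 h the ratio was 1.08 and at 0 h also 1.08.

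Calls of 2 reads on the same strand served as a measure of how alike the calls at one CpG are across molecules. They were taken at every position called on one strand in the library and in another of its time, not only at dyads. At 12 h these were 11555, 11804 and 6737 positions for A, B and C, against 7475, 7571 and 4542 dyads for opposite strands between libraries. The 2 kinds of value thus cover different CpGs. At 12 h phi for the same strand in 2 libraries was 0.0937, 0.114 and 0.111 for A, B and C, slightly above the opposite-strand values between libraries in each. At 6 h it was 0.0200, below the opposite-strand value. Over the 5 libraries the opposite-strand value exceeded the same-strand value by 0.00843 on average, in 2 of 5 libraries (exact sign-flip permutation p = 0.625), and by -0.00239 without the 12 h library A. Outside high-copy windows the same-strand values at 12 h were 0.0819, 0.106 and 0.104, and the opposite-strand values 0.0790, 0.0745 and 0.0877. The libraries of one time share reads in these values, so the 5 differences are not independent.

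**Figure D3:**
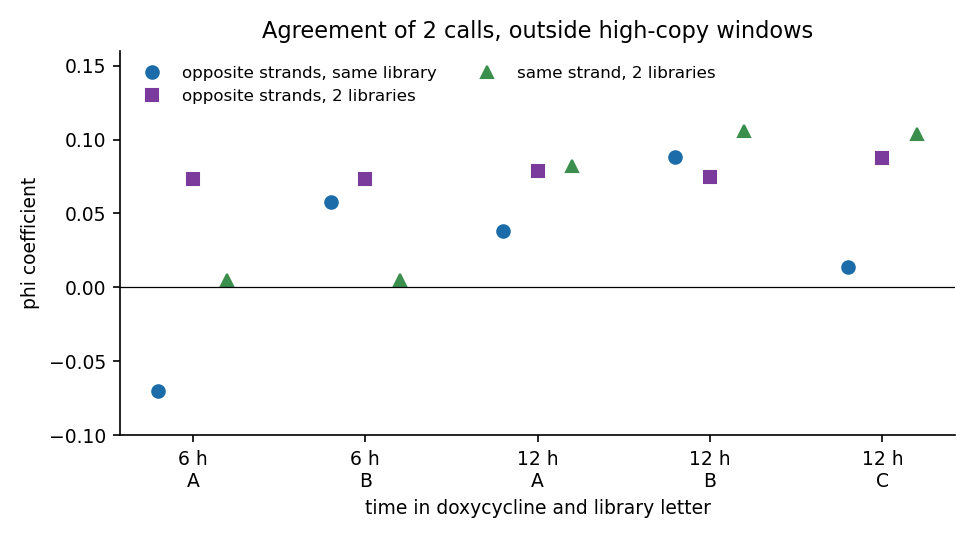
Phi coefficient of 2 calls in each Dox library outside high-copy windows, by hours in doxycycline: opposite strands of a dyad within the library (circles), opposite strands between it and other libraries of its time (squares), and the same strand between libraries (triangles). The triangles cover all positions called on one strand in the library and in another, not only dyads. At 12 h the triangles lie at or above the squares, and the circles range from 0.0139 to 0.0880.

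At 12 h and over all reads, opposite calls of CpGs up to 200 bases apart had a higher phi than the 2 strands of one dyad. Over pairs of calls outside high-copy windows, phi was 0.0767 for the 2 strands of a dyad. It was 0.122, 0.125, 0.121, 0.127 and 0.126 for a top and a bottom call of CpGs 2 to 10, 11 to 30, 31 to 60, 61 to 100 and 101 to 200 bases apart. It was 0.0975 at 201 to 500, 0.0741 at 501 to 1000 and 0.0106 at 1001 to 5000 bases. The pairs differ in CpG density: the top level was 22.8% at distance 0 and 14.6 to 17.0% at 2 to 200 bases. On reads with 2 to 5 CpGs, where the levels were 25.9 to 28.7% at 0 to 200 bases, phi was 0.0314 at distance 0, between 0.00542 and 0.0360 at 2 to 200 bases and 0.00183 at 1001 to 5000 bases. At 6 h, over all reads, phi was 0.0644 at distance 0 over 1625 pairs. It was -0.0259, 0.0145, 0.0758, 0.0823 and 0.0239 in the same 5 bins from 2 to 200 bases, so that 3 of the 5 lay below the dyad value. At 6 h, on reads with 2 to 5 CpGs, it was 0.0564 at distance 0 over 976 pairs and lay between -0.0565 and 0.0359 at 2 to 200 bases.

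**Figure D4:**
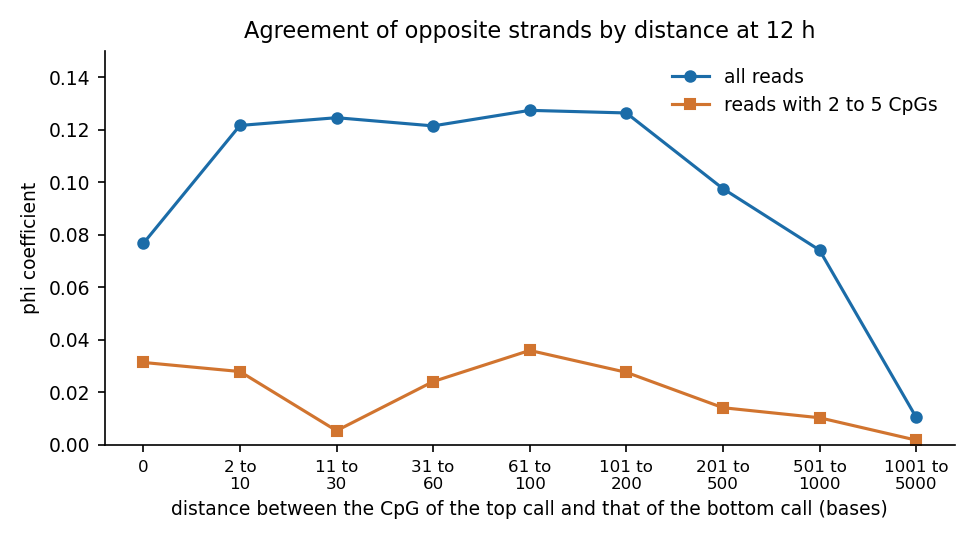
Phi coefficient of a top call and a bottom call of different reads at 12 h against the distance between their CpGs in bases, outside high-copy windows, for all reads (blue) and reads with 2 to 5 CpGs (orange). Distance 0 is the dyad itself. The blue points rise to 0.127 at 61 to 100 bases and fall to 0.0106 beyond 1000 bases, and the orange points stay below 0.04.

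The agreement was uneven over classes of CpG density, with the number of CpG calls on the read with fewer calls as its measure. At 12 h the mean level of the 2 strands was 26.6%, 27.0% and 26.3% in dyads on reads with 2, 3 and 4 to 5 CpGs, 16.7% with 6 to 10 and 5.74% with 11 or more. Phi was 0.0232, 0.0248 and 0.0380 in the first 3 classes, 0.187 with 6 to 10 CpGs and 0.0612 with 11 or more. With 6 to 10 CpGs 5.34% of dyads were undeaminated on both strands, where the product of the strand levels is 2.76%. With 2 CpGs the values were 7.53% and 7.08%, and with 11 or more 0.660% and 0.329%. Among single-call dyads with 11 or more CpGs the bottom level was 17.9% (10 of 56) opposite an undeaminated and 5.27% (57 of 1081) opposite a deaminated top call. With 6 to 10 CpGs these levels were 29.6% and 12.2%. The classes differ in level, so a higher or lower phi in one of them does not by itself show stronger or weaker agreement.

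In each 12 h library the split was alike. Outside high-copy windows, over dyads with at least 1 read in the library, phi was 0.186, 0.187 and 0.197 on reads with 6 or more CpGs in A, B and C, and 0.0262, 0.0345 and 0.0336 on reads with 2 to 5 CpGs. The 2 ranges did not overlap, though the libraries share dyads. The group with 6 or more CpGs joins 2 classes that differ in level, 17.6% with 6 to 10 CpGs and 5.64% with 11 or more. Over all 12 h libraries phi was 0.181 and 0.0909 in these 2 classes taken apart. Their dyads came from few pairs of reads, 2209 from 493 pairs and 1273 from 161, against 4287 from 2748 with 2 CpGs. With 2 libraries at 6 h phi was 0.102 and 0.0622 with 6 or more CpGs, over 70 and 452 dyads, and 0.0619 and 0.0603 with 2 to 5.

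**Figure D5:**
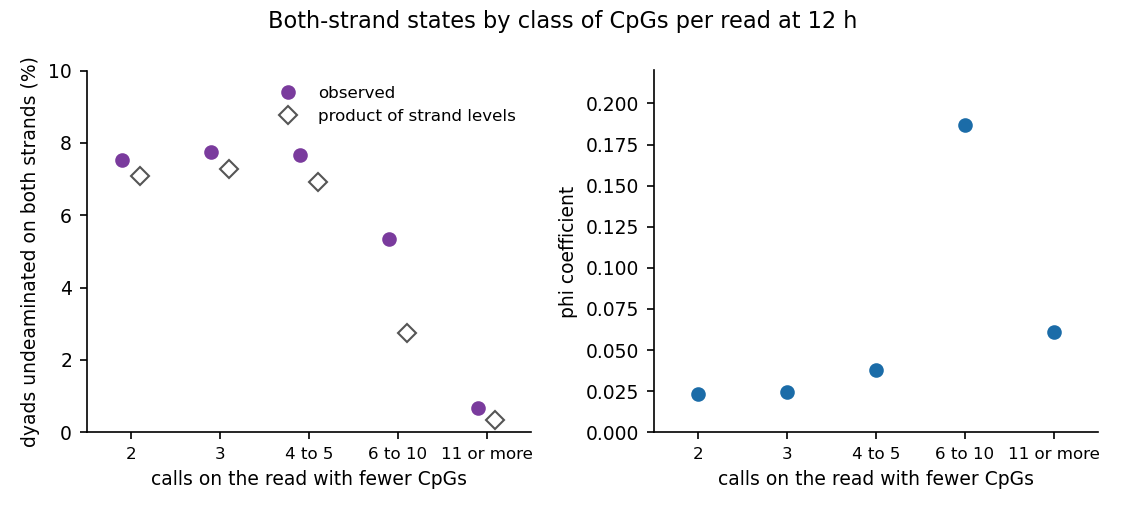
Left, percentage of 12 h dyads undeaminated on both strands, observed (filled) and as the product of the strand levels (open diamonds), by number of CpG calls on the read with fewer calls. Right, phi coefficient in the same classes. The gap on the left is widest at 6 to 10 CpGs, where phi is 0.187, against 0.0232 at 2 CpGs.

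At 12 h dyads at most 1 kb from an end of a protein-coding gene, where many CpG islands lie, had a lower level and a higher phi than the dyads of the other regions, but not a higher phi within every class of CpGs per read. These 2347 dyads had a level of 11.3%, and 2.98% were undeaminated on both strands, where the product is 1.27%, with a phi of 0.172. In protein-coding gene bodies away from the ends, over 6886 dyads, the level was 26.2%, 7.83% were undeaminated on both strands where the product is 6.86%, and phi was 0.0502. Intergenic dyads had a level of 23.8% and a phi of 0.0465, and those in lncRNA gene bodies 21.9% and 0.0544. Outside high-copy windows, over dyads with at least 1 read in the library, phi near gene ends was 0.176, 0.178 and 0.170 in the 12 h libraries A, B and C. Away from gene ends it was 0.0406, 0.0478 and 0.0531. These values rest on 1543, 1596 and 734 of the 2347 dyads near gene ends, so the libraries share dyads and are not independent. On reads with 6 or more CpGs phi at 12 h was 0.136 near gene ends and 0.172 away from them, and on reads with 2 to 5 CpGs it was 0.127 near gene ends and 0.0198 away from them. At 6 h 0 of 287 single-call dyads near gene ends were undeaminated on both strands, where the strand levels multiply to 0.268, and the 0 allows a share of up to 1.05%.

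The excess was smaller when levels were taken class by class. With the strand levels multiplied within each class of CpGs per read, the share expected on both strands at 12 h was 5.62% in place of 5.13%, and within classes and gene ends 5.69%, below the observed 6.47%. The odds ratio of the 2 strands was 1.51 over all 12 h dyads and 1.30 as a Mantel-Haenszel estimate over classes and gene ends. At 6 h it was 2.22 and 1.92. On reads with 2 to 5 CpGs away from gene ends, 695 of 8970 single-call dyads were undeaminated on both strands at 12 h, where the strand levels multiply to 662, and phi was 0.0198. Differences in level within these classes were not tested.

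Dyads on the same pair of reads can be read together. Outside high-copy windows, pairs of reads that shared exactly 1 dyad at 12 h numbered 1499, and 95 of them were undeaminated on both reads, 561 on one and 843 on neither. Of the 369 pairs of reads that shared 6 or more dyads, 90 had an undeaminated call on both reads at these dyads, 102 on one read and 177 on neither. At 6 h the pairs with 6 or more shared dyads numbered 38, with 1, 11 and 26 in these states. The numbers that unrelated reads would give were not computed. These counts alone therefore do not show an excess, for pairs sharing 1 dyad or for those sharing many.

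Dyads called at least 2 times on each strand were looked at for a state shared by all their calls. At 12 h there were 625, of which 49 lay outside high-copy windows. Every call was undeaminated in 0 of the 625, which allows a share of up to 0.48%, and deaminated in 328. In 4 of the 625 one strand was undeaminated in every call and the other in none. Of the 49 outside high-copy windows, 32 had every call deaminated and 2 had the strands split in this way. The numbers expected at these levels were not computed, so the counts do not show that a state is fixed. Of the dyads with every call deaminated, the 3 with the most calls are named. The one at position 98662629 of chromosome 2, in a high-copy window (GRCm38), had 0 of 19 top and 0 of 8 bottom calls undeaminated. The dyads at 39843484 and 39843431 of chromosome 17, also in a high-copy window, had 0 of 27 and 0 of 26 calls undeaminated. At 35305582 of chromosome 9, in the gene model Gm33838, 0 of 3 top and 3 of 3 bottom calls were undeaminated, in a high-copy window. At 3014168 of chromosome 9, also in a high-copy window, the counts were 0 of 3 top and 2 of 2 bottom calls. At 58224650 of chromosome 10, in LOC100504180 outside such windows, they were 2 of 2 top and 0 of 3 bottom calls. These dyads were chosen by their calls and are a description.

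The dyads reached 2589 of the 20665 protein-coding genes at 12 h, and 586 genes held at least 5. Sfi1, which encodes a centrin-binding protein of the centrosome, held 36 dyads, 31 of them in a high-copy window, with a 12 h level of 26.1%. Filip1l and the overlapping Cmss1 shared the same 28 dyads, all in a high-copy window, with a level of 4.57%, and the Mediator kinase gene Cdk8 held 18, all in such a window, with 5.28%. Dennd1b, which encodes an exchange factor for RAB GTPases, held 30 dyads from 4 pairs of reads with a level of 10.8%. Cdh23, a cadherin of hair cell tip links, held 25 dyads from 9 pairs of reads, of which 2 were undeaminated on both strands, 7 on one and 16 on neither. Sprtn, a protease of DNA-protein crosslinks, held 22, with 1, 4 and 17 in these states. Tex30 held 21 dyads with a level of 0%, and Obsl1, a cytoskeletal adaptor gene, 19 with 2.63%. Mideas, which encodes a histone deacetylase complex subunit, held 19 with 17.1%. Dyads of one gene mostly share a few reads, so a gene's level rests on those reads.

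Genes of DNA methylation and demethylation held 18 dyads at 12 h in 6 of 20 members. Of the 15 with single calls 2 were undeaminated on both strands, 6 on one and 7 on neither. Tet3 held 5 dyads with a level of 36.7%, and reads of the TET3 sequence in the vector could be among them, which was not tested. The maintenance methyltransferase gene Dnmt1 held 4 dyads from 1 pair of reads, 1 of them undeaminated on one strand. The thymine glycosylase gene Tdg, whose product removes further oxidised cytosines, held 4 dyads, with 1 undeaminated on both strands and 3 on neither. Imprinted genes held 13 dyads in 4 of 30 members, with 1, 6 and 6 in the 3 states. Among them Rasgrf1 held 6, and the actin nucleator gene Cobl and the receptor gene Igf2r 3 each. Of the pluripotency genes 1 of 20 held a dyad, Tfcp2l1, which was undeaminated on one strand. Of the housekeeping genes Actb held 3, from 1 pair of reads, undeaminated on neither. At 6 h these 4 lists held 1 dyad in all, so nothing could be set beside the 12 h states.

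In the RefSeq promoter windows, which cover 250 bases before and 50 after a gene start, 417 dyads of 12 h had a level of 5.52%. Of the 377 with single calls 4 were undeaminated on both strands, where the strand levels multiply to 1.19. Of dyad calls in these windows, those with an A before the CpG on the called strand were undeaminated in 12.6% (14 of 111, Wilson interval 7.66 to 20.1%). With C, G and T before the CpG the level was 5.32% (3.25 to 8.59%), 3.68% (2.16 to 6.20%) and 3.10% (1.21 to 7.70%), and the interval for A overlaps those for C and T. The per-library mean after A was 12.5% ± 8.29 (SD, n = 3), with libraries from 4.26 to 20.8%, a range that overlaps that after C (2.50 to 9.43%). Over all calls of known strand in these windows the level was 11.1% after A (401 of 3627), against 4.57%, 7.12% and 4.96% after C, G and T, and the per-library mean after A was 11.8% ± 2.83 (SD, n = 3). These calls differ in CpG density, with a median of 9 CpGs per read after A and 12, 13 and 10 after C, G and T. On reads with 2 to 5 CpGs the level was 23.4% after A and 16.3%, 19.1% and 13.7% after C, G and T. On reads with 6 or more CpGs it was 5.48% after A and 2.36%, 5.29% and 1.93% after C, G and T. The base that precedes a CpG on one strand sets the base that follows it on the other, so the 2 cytosines of a dyad can differ in it. These values describe promoter windows and carry no test.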

How the data were processed

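CpG calls of 8 ACE-seq libraries were used. The authors deposited Bismark extractor output (version 0.22.3, per the file headers) with a call letter, undeaminated or deaminated, for every CpG on a read. Trim Galore, Bismark and the build GRCm38 are named in the submitters' processing notes. Whether duplicates were removed, and with which settings reads were aligned, is not given in the sources used here. Groups and letters came from the sample titles, and the members and gene lists were chosen with earlier results of these data known.

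Of 832996 reads, 447752 had at least 2 calls and 0 were of mixed order, so strand could be assigned to 1422304 calls at positions within the limit. At 104 positions a library held more than 10 calls, and these were left out in all libraries. Each dyad has weight 1, and its joint share is the product of the shares on its strands. Phi, Wilson intervals (95%) and two-sided exact permutation or sign-flip tests were computed in Python 3.11.15 with numpy 2.4.6, pandas 2.3.3 and scipy 1.17.1, and phi was tested on simulated data. A share of 0 over many dyads or calls is given with the share of 3 counts, but not for single dyads or genes. Dyads shared by 2 reads count in a class by the read with fewer calls. The named dyads were the 3 with the most calls in each state at 12 h, and the named genes the 10 protein-coding genes with the most 12 h dyads and the 3 of each list with the most. Gene ends are within 1 kb of either end in a RefSeq gene table of GRCm38.p6 without strand, and promoter sequences are RefSeq's. A planned test by flanking bases was not run, since no genome was used here.

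The alternatives were other limits on calls, single or repeated calls, 1 dyad per pair of reads, identical reads counted once, no fully undeaminated reads, no gene ends, no high-copy windows, other measures of agreement, each of the 3 sequencing runs alone, each library left out and the replicate letter as a block.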

Additional observations from a re-analysis of the deposited data

Results flagged for a closer look

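Dyads of chromosome X lie outside the chromosomes 1 to 19. There were 50 at 12 h, and 20 of their 100 calls were undeaminated (20%, Wilson interval 13.3 to 28.9%), against 0 of 26 calls at 0 h and 0 of 24 at 6 h, which allow levels of up to 11.5% and 12.5%. They were looked at because they show a signal in data that the comparisons leave out. Phi was 0.138 over these 50 dyads.

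The difference between opposite-strand and same-strand agreement had one sign at 12 h (-0.00701, -0.0325 and -0.0162 in libraries A, B and C) and the other at 6 h (0.0489 in both libraries), a contrast of -0.0675. The difference between the times was not tested, and the 6 h values come from a single pair of libraries. Opposite-strand and same-strand agreement were taken over different CpGs.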

How the results depend on the processing

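The difference in dyad level kept its direction in 18 of 18 alternatives for 12 h against 0 h and in 17 of 17 for 12 h against 6 h, and with single libraries left out it ran from 17.96 to 20.4 and from 15.2 to 18.2 points. Over dyads with at least 2 calls on each strand these were 9.41 and 9.83 points. For 6 h against 0 h it ran from 1.79 (without 6 h B) to 3.18 points with a library left out, and was 5.75 without high-copy windows, 5.53 over dyads with exactly 1 call on each strand and 5.22 with at most 2 calls per library. There it was -0.423 points over dyads with at least 2 calls on each strand, and 0 in run 1 alone, which holds 6.83% of all calls. The dyads with at least 2 calls on each strand numbered 179 at 0 h and 236 at 6 h, all in high-copy windows. The difference between dyads and other calls ran from -3.02 to -2.55 points with a library left out, and was -9.49 over dyads with at least 2 calls on each strand, -4.01 in run 3 alone, -1.64 without gene ends, -1.15 with no maximum of calls, -0.352 with at most 2 calls per library, -0.00425 without high-copy windows and 0.0189 over dyads with exactly 1 call on each strand. Top minus bottom level ran from -0.441 (without 12 h B) to 0.791 points (without 12 h A), from 0.0217 over dyads with exactly 1 call on each strand to 0.879 with no maximum of calls, and was -0.114 with at most 2 calls per library and -0.216 without high-copy windows. Phi at 12 h ran from 0.0740 to 0.0864 with a library left out, but was 0.0387 with 1 dyad per pair of reads, 0.0126 in run 1 alone, 0.0302 on reads with 2 to 5 CpGs and 0.138 on chromosome X, the last 2 chosen after seeing the data. Phi at 6 h was -0.0381 without library B, 0.0495 without A and 0.0200 over dyads with at least 2 calls on each strand, all in high-copy windows. The difference in phi, 12 h against 6 h, ran from 0.0191 to 0.107 with a library left out, and was 0.0270 with 1 dyad per pair of reads, 0.113 in run 2 alone and 0.142 in run 3 alone. As a log2 odds ratio this difference was reversed, at -0.501. Same-library minus between-library agreement ran from -0.0610 to -0.0343 with a 12 h library left out, and was -0.00406 (exact sign-flip permutation p = 0.9375) in run 2 alone, which holds 47.4% of all calls, -0.0631 over dyads with exactly 1 call on each strand and -0.0638 with 1 dyad per pair of reads. Opposite-strand minus same-strand agreement ran from -0.00239 (without 12 h A) to 0.0383 (without 12 h B), and was -0.00310 in run 2 alone, 0.0293 in run 3 alone, 0.0173 without high-copy windows and 0.0154 with at most 2 calls per library. The causes of these changes were not tested.

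Libraries share letters, but same-lettered libraries did not all deviate together (correlations -0.501 to 0.493 over 58 regions of 50 Mb), and 2 of 3 libraries of 12 h correlated best with their own letter at 0 h. With the letter as a block the level differences were 20.0 (12 h against 0 h), 2.52 (6 h against 0 h) and 15.6 points (12 h against 6 h) and that of phi 0.0722, with no call changed. The 10 dyads undeaminated on both strands at 6 h limit what can be said there, and few CpGs were called more than once on a strand. The planned limma test by flanking bases was not run.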
